A study of Mus musculus with 4 samples.

Results

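The genes described here are 7 mouse genes known from granulocytes: S100a8, S100a9, Mpo, Prtn3, Ngp, Camp and Ltf. They were taken as every probe that carries 1 of these names in the scanner files, which gave 8 of 41174 probes and 7 of 27627 genes. They had been picked because earlier inspection of the same 4 arrays showed them higher after loss of Rest in both tissues, so the genotype difference of these genes is given below as a description, with no test. The arrays profiled E13.5 embryos on a mixed 129 and C57BL/6 background, with 1 array in each of 4 groups. These were limb from embryos in which Rest was conditionally deleted (CKO), limb from wild type (WT) embryos, brain from CKO embryos and brain from WT embryos. The deletion used Rest-floxed mice and doxycycline-inducible Cre alleles, and doxycycline from E8.5 until E13.5 is recorded for all 4 samples, the WT ones included. The promoter behind the inducible Cre, and the number of embryos behind each RNA, are not given in the sources used here.

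Rest encodes a zinc-finger repressor that binds a DNA element in neuronal genes and keeps them low outside neurons. Granulocytes, of which neutrophils are the most common kind, are short-lived white blood cells that store proteases, antimicrobial proteins and iron-binding proteins in granules made at successive stages of maturation. Mpo and Prtn3 belong to the primary granules made first, and Ngp, Camp and Ltf to the secondary granules made later. S100a8 and S100a9 together form calprotectin, the main calcium-binding protein of the neutrophil cytosol. In the mouse fetus these cells are made mostly in the liver and reach other organs through the blood.

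The probes are 60-base oligonucleotides, and the scanner files place them on build mm9. No gene annotation of that build was used here, so exon and UTR are not assigned. The S100a8 probe lay at chr3:90473778-90473837 on the plus strand and the S100a9 probe at chr3:90496585-90496644 on the minus strand. The Camp probe lay at chr9:109749992-109750051 on the minus strand. The other probes were on the plus strand. The Ngp probe covered chr9:110324266-110324814, the Prtn3 probe chr10:79343869-79344685 and the Mpo probe chr11:87617102-87617877, each wider than the probe itself, so each crosses an intron. Ltf had 2 probes, of which probe 1 covered chr9:110938264-110941314, again across an intron, and probe 2 chr9:110942873-110942932. The sequences below are the molecules on the array that caught the RNA of these genes, and they are shown because some of the genes have close relatives.
S100a8: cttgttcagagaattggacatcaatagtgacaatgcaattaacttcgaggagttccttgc
Prtn3: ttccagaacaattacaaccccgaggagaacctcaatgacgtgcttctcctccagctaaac
Ngp: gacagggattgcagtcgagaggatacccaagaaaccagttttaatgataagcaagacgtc
Camp: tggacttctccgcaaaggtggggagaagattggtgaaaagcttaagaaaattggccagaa
Ltf probe 1: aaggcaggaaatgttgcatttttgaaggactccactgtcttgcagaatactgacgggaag
Ltf probe 2: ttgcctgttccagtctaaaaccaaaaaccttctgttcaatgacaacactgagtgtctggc
No base is in capitals, since no stretch of a probe is singled out. The longest run of bases that any of the 8 probes shared with a probe for another gene was 17, in Ngp, and the shortest such maximum was 13, in Camp and S100a9. The share of G and C in a probe lay between 40% for S100a8 and 55% for Mpo.

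The signal of a spot is given in the scanner's intensity units after its own background correction, and the ± beside it is the scanner software's error for that spot, which covers no difference between embryos. A log2 level is the log2 of that signal minus the 75th percentile of the array, so that 0 is the 75th percentile. A probe counts as detected where the software called it well above background, which held for 68.6% of 43379 spots on CKO limb, 62.7% on WT limb, 70.7% on CKO brain and 64.5% on WT brain. The lowest signal so called was 17.1 on CKO limb, 25.2 on WT limb, 13.7 on CKO brain and 21.9 on WT brain, so dim genes were called more readily on both CKO arrays. Where only 1 array of a pair detected a gene, the difference is taken as a lower bound, set against the lowest detected signal of the dim array, and is written "at least". An undetected signal that was itself above that lowest signal was used as it stood. The difference is then no strict bound. The 3 probes for Rest were lower on the CKO arrays, by 4.03-, 17.2- and 15.7-fold in limb and by 1.88-, at least 6.60- and 11.9-fold in brain; whether they lie inside the deleted part was not assessed. Their log2 levels ran from -4.85 to -0.37 in CKO limb, -0.75 to 2.41 in WT limb, -8.41 to -1.69 in CKO brain and -3.47 to -0.16 in WT brain.

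Both calprotectin genes had a higher signal in CKO than in WT within each tissue. S100a9, the larger calprotectin subunit, had a signal of 1811 ± 181 in CKO limb, 647 ± 64.9 in WT limb, 538 ± 53.8 in CKO brain and 64.4 ± 7.84 in WT brain. S100a8, the smaller subunit, had 523 ± 52.5 in CKO limb, 149 ± 16.5 in WT limb, 122 ± 12.8 in CKO brain and 21.3 ± 6.47 in WT brain, where it was not well above background. In both genes CKO limb was highest and WT brain lowest, with WT limb and CKO brain close to each other in between. The log2 level of S100a9 was higher by 1.23 in CKO than in WT limb, a 2.34-fold difference with a scanner error of 0.20 log2, and by 2.91 in CKO than in WT brain, or 7.50-fold with an error of 0.23. For S100a8 the difference was 1.56 log2 in limb (2.94-fold, scanner error 0.22), and at least 2.32 log2 in brain, or at least 4.99-fold. The scanner error is the only error that 1 array per group gives, and it leaves out any difference between samples of a group.

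Among the primary granule genes, Mpo was higher in CKO and Prtn3 hardly differed. Mpo, myeloperoxidase, which makes hypochlorous acid in the phagosome, had a signal of 895 ± 89.6 in CKO limb, 247 ± 25.3 in WT limb, 116 ± 12.1 in CKO brain and 40.2 ± 6.33 in WT brain. It was detected on all 4 arrays, and its log2 level was higher in CKO by 1.60 in limb (3.04-fold, scanner error 0.21) and by 1.38 in brain (2.61-fold, scanner error 0.27). Prtn3, the serine protease proteinase 3, had 74.4 ± 8.71 in CKO limb, 48.4 ± 8.30 in WT limb, 151 ± 15.5 in CKO brain and 118 ± 13.1 in WT brain. Its log2 difference of 0.36 in limb was close to the scanner error of 0.30, and its 0.21 in brain was under the scanner error of 0.22. The description of these genes as higher in both CKO tissues therefore rests, for Prtn3, on differences of about the scanner error or less, and Prtn3 was also the only one of them to be brighter on both brain arrays than on both limb arrays.

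The secondary granule genes were dim. Camp, the precursor of the mouse cathelicidin antimicrobial peptide, had a signal of 111 ± 11.7 in CKO limb, 27.9 ± 6.09 in WT limb, 33.1 ± 4.40 in CKO brain and 4.66 ± 4.67 in WT brain. Ngp, neutrophilic granule protein, a relative of the cathelicidins and cystatins, had 31.3 ± 4.62 in CKO limb, 7.68 ± 5.08 in WT limb, 12.6 ± 3.01 in CKO brain and 4.38 ± 4.37 in WT brain. Ltf probe 2, the brighter of the pair for the iron-binding protein lactoferrin, had 47.7 ± 6.30 in CKO limb, 10.9 ± 6.32 in WT limb, 24.7 ± 4.17 in CKO brain and 5.24 ± 5.22 in WT brain. In WT brain all 3 genes had signals about as large as their error. Ltf probe 1 ran in the same order, with 28.1 ± 4.56 in CKO limb, 5.37 ± 5.36 in WT limb, 13.48 ± 3.17 in CKO brain and 4.59 ± 4.59 in WT brain. Camp was the only secondary granule gene detected on both limb arrays, with a log2 difference of 1.74 (3.34-fold, scanner error 0.35), and in brain it was higher in CKO by at least 0.44 log2, or at least 1.35-fold. Ltf was at least 1.59-fold higher in CKO limb, while its bound in brain came to at least 0.02 log2. Ngp was detected in CKO limb alone, where its bound was at least 0.06 log2, and it has no difference in brain, since neither brain array detected it.

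**Figure D1:**
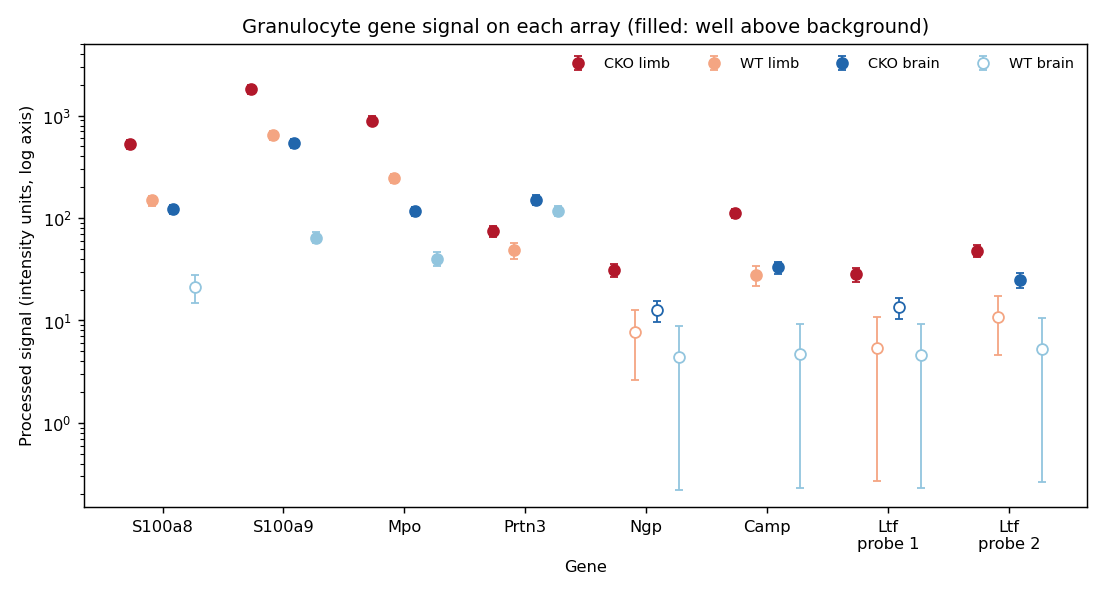
Signal of each probe (scanner intensity units, log axis) on the 4 arrays, by gene, with the scanner software's error for the spot as the bar and open points for signals not well above background. S100a9 reaches 1811 in CKO limb against 647 in WT limb, and every probe is higher in CKO than in WT within a tissue, by the least for Prtn3.

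Counted at a 2-fold difference, 4 of the 7 genes were higher in CKO limb than in WT limb (S100a8, S100a9, Mpo and Camp), where 2.49% of all 18447 genes compared were. In brain 3 of the 7 were at least 2-fold higher in CKO (S100a8, S100a9 and Mpo), against 1.37% of 18947 genes. No member was lower at that size, against 2.16% of genes in limb and 1.22% in brain. S100a8, S100a9 and Mpo were at least 2-fold higher in both tissues, as were 27 of 17409 genes, or 0.155%. Since the genes were chosen on this contrast, these shares are printed beside the counts and nothing is read from them. The signal as given was higher in CKO for 7 of 7 genes in limb and for 7 of 7 in brain, the undetected ones included. The share of all genes on that measure was not computed, so nothing is read from it. By the other measure, with detection and bounds, a difference above 0 of any size in both tissues held for 22.0% of all genes compared. It held for each of these genes but Ngp, which has no value in brain.

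The number of these genes detected was 7 on CKO limb, 5 on WT limb, 6 on CKO brain and 3 on WT brain. Their levels on the linear scale, summed over the 7 genes in units of the array's 75th percentile signal, came to 3.77 in CKO limb, 1.46 in WT limb, 0.995 in CKO brain and 0.286 in WT brain. S100a9 makes up most of that sum on the limb arrays and on CKO brain, while on WT brain Prtn3 is the largest part. These are bulk tissues, in which fewer cells of a type and less RNA per cell cannot be told apart. The order of the summed levels thus does not say how many cells carried the RNA.

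**Figure D2:**
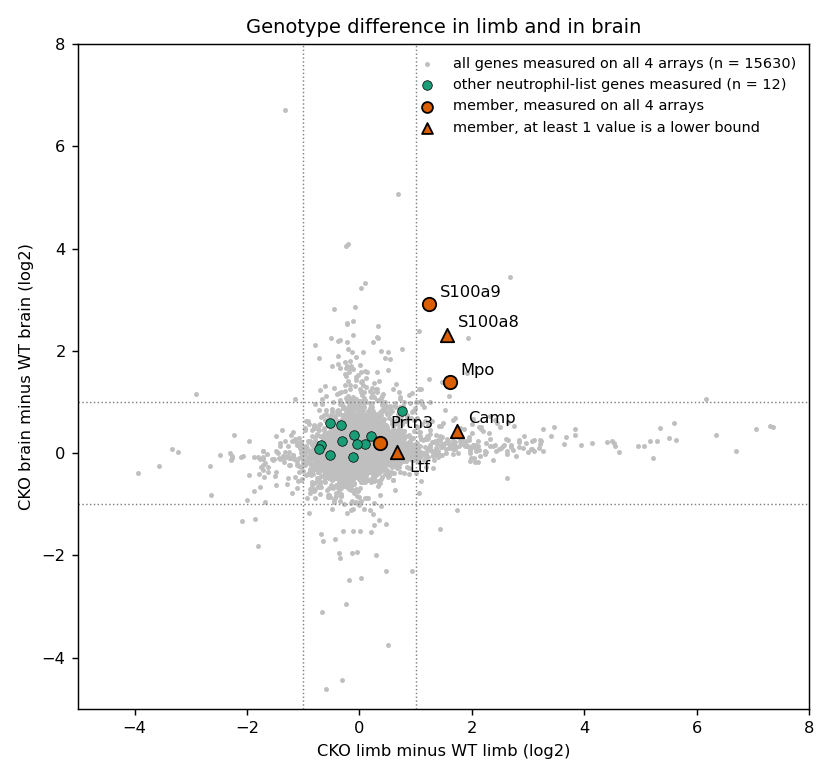
Difference between CKO and WT (log2) in limb on the horizontal axis and in brain on the vertical axis, for genes measured on all 4 arrays in grey, for other genes of the neutrophil and granulocyte lists in green and for 6 of the 7 granulocyte genes in orange, with triangles where a value is a lower bound and dotted lines at 2-fold. S100a9, S100a8 and Mpo lie beyond 2-fold in both directions of the plot, Camp in limb alone, and Ngp is left out since neither brain array detected it.

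The size of these differences depended on the background correction and on the detection call. With normexp, a model-based correction that here also adds a constant to every signal, the log2 difference of S100a8 came to 1.16 in limb and at least 0.81 in brain, that of S100a9 in brain to 2.11, that of Mpo to 1.39 in limb and 0.62 in brain, and that of Camp in limb to 0.73. Camp in limb and Mpo in brain thus went under 2-fold with that correction, and the bound for S100a8 in brain no longer reached 2-fold. The detection call worked the other way. A more lenient call of the same software, chosen after seeing the data, asks only that a signal be positive and significant against its local background. With it, the log2 difference in limb became 1.77 for Ngp (scanner error 0.98) and 1.87 for Ltf (scanner error 0.86). In brain the values became 2.67 for Camp, 2.08 for Ltf and at least 1.35 for Ngp, with scanner errors of 1.46, 1.46 and 1.48. Those for Camp and Ltf are plain differences from an undetected WT brain signal about as large as its error, and not lower bounds.

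The tissue difference was not used to pick these genes and could be tested, by a limma fit of tissue and genotype together over 15628 genes detected and not saturated on all 4 arrays. The fit has 2 brain and 2 limb arrays but 1 array in each group, so it holds no replicates. Its p-values set the tissue difference against how unevenly it ran in CKO and WT, with variance shared over genes by limma. They measure no spread between samples of a group. Of the members, 3 entered the fit. Mpo was lower in brain than in limb by a log2 difference of -2.94 (SE 0.087, limma adjusted p = 0.0057), and S100a9 by -2.70 (SE 0.53, limma adjusted p = 0.035). Prtn3 was higher in brain, by 0.99 log2 (SE 0.073, limma adjusted p = 0.0082). All 3 passed the threshold of 0.05, but so did 66.6% of all genes fitted, so a tissue difference was the rule on these arrays. S100a9 no longer passed when genes detected on at least 1 array entered the fit (limma adjusted p = 0.070), the highest of 7 other settings, of which normexp gave the lowest (limma adjusted p = 0.0081).

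Within a genotype, brain was set against limb with 1 array each. S100a9 differed by -1.86 log2 in CKO brain against CKO limb and by -3.54 in WT brain against WT limb. Mpo differed by -3.05 in CKO and by -2.83 in WT. Prtn3 was higher in brain by 1.88-fold in CKO and 2.10-fold in WT, so it passed 2-fold in WT alone. At least 2-fold higher in brain were 15.1% of genes in CKO and 15.8% in WT. S100a8 differed by -2.21 in CKO, and in WT it was at least 7.86-fold lower in brain. S100a8, S100a9 and Mpo were thus at least 2-fold lower in brain in both genotypes, a size that 16.9% of genes reached in CKO and 18.8% in WT. Camp was 3.63-fold and Ltf 2.09-fold lower in CKO brain than in CKO limb, and Ngp at least 2.46-fold lower. In the WT pair Camp had only a bound, at least 1.47-fold lower in brain, and Ltf and Ngp were detected on neither array. Ordered by level, CKO brain and WT limb were neighbours for most of these genes. Camp differed between CKO brain and WT limb by -0.12 log2, within its scanner error of 0.37, so the order of these 2 arrays is not settled for that gene. S100a8 and S100a9 were lower in CKO brain than in WT limb by -0.66 and -0.63 log2, with scanner errors of 0.22 and 0.20. Mpo differed more between these arrays, by -1.45 log2 (scanner error 0.21), so for Mpo neighbours in order were not close in level. For Prtn3 they were not neighbours. CKO brain was its highest array and WT limb its lowest, 1.27 log2 apart (scanner error 0.29). Whether the genotype difference of a gene differed between brain and limb was not tested, since each group has 1 array.

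Other neutrophil and granulocyte genes were read from 6 lists with 54 genes on the array, and few of them reached 2-fold. Of these, 20 were not well above background on any of the 4 arrays. They included Elane, the neutrophil elastase of the primary granule, and the secondary and tertiary granule genes Lcn2, Fcnb, Mmp8, Cd177, Itgb2l and Olfm4. They also included the receptors Csf3r, Cxcr2, Fpr1, Fpr2 and Trem1. Csf3r senses a growth factor, Cxcr2 chemokines and Fpr1 and Fpr2 bacterial peptides. Elane, which lies next to Prtn3 in the RefSeq gene order, had a log2 level of -7.97 in CKO limb and -7.12 in WT limb, and -8.40 in CKO brain and -7.57 in WT brain. Several genes that define a mature neutrophil were therefore not measurable, and the label granulocyte rests on the 7 genes themselves.

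In limb, 1 of the 32 listed genes with a value was at least 2-fold higher in CKO, against 2.49% of all genes, and 2 were lower, against 2.16%. The higher one was Ctsg, the primary granule protease cathepsin G, at a log2 level of -3.22 in CKO limb and -5.08 in WT limb, where it was not detected, a difference of at least 3.30-fold. The lower ones were the lectin receptors Clec4d and Clec4e, detected in WT limb alone. Clec4d was 2.82-fold lower in CKO limb by the signals as they stood, and Clec4e at least 2.22-fold lower. The median log2 difference of the listed genes was -0.10 in limb and 0.23 in brain, where all genes compared had medians of -0.02 and -0.01. In brain 3 of 27 listed genes were at least 2-fold higher in CKO, against 1.37% of all genes, and 0 were lower. These were Stfa1 (at least 5.60-fold), Stfa3 (2.82-fold by the signals as they stood) and Stfa2l1 (at least 2.41-fold). They are cysteine protease inhibitors of the stefin A family, none of them detected in WT brain. Stefin A genes are close copies of one another, so their probes may share RNA and the 3 values are not independent. In limb the same genes were detected on both arrays and differed by -0.03, -0.22 and -0.16 log2.

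Ctsg, Clec4d, Clec4e and the stefins aside, no gene of the 6 lists had a measured difference or a bound of 2-fold. Mmp9, the tertiary granule gelatinase, had log2 differences of 0.76 in limb and 0.82 in brain, and in the limma fit of genotype over both tissues 0.79 (SE 0.057, limma adjusted p = 0.66). That fit called 0 of 15628 genes for genotype, or 0.00%, while 984 had an unadjusted p under 0.05, so no listed gene passed. The NADPH oxidase genes Cybb and Ncf1 had -0.83 and -0.68 in limb, and Ncf1 had 0.16 in brain. None of the 6 granulocyte transcription factor genes on the array had a measured difference or a bound of 2-fold in either tissue. Cebpa had -0.52, Runx1 -0.04 and Myb -0.12 in limb, and -0.04, 0.18 and -0.08 in brain. Cebpd had -0.10 in limb and 0.36 in brain, and Gfi1 had -0.77 in limb. Spi1 in both tissues and Gfi1 in brain had only a bound of at least 0 log2, so a larger difference is possible for them. The cytokine genes Csf3, Csf2, Il6, Il1b and Il17a and the chemokine gene Cxcl2, which drive neutrophil production and recruitment, were not detected on any array. Other genes of that list were detected. Cxcl12, detected on every array, had 0.09 in limb and 0.18 in brain. Cxcl1 had -0.07 in limb and only a bound of at least 0 in brain. Cxcl5 had -0.98 in limb, and Tnf was detected in CKO limb alone. Of the genes for proteins that bind calprotectin, Tlr4 had -0.28 in limb and at least 0.22 in brain, and the list of 6 had medians of 0.06 in limb and 0.22 in brain.

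Relatives of the 7 genes by protein family were compared as well. None of the other S100 genes had a measured difference or a bound of 2-fold in either tissue. The median log2 difference of their list was -0.17 over 11 genes in limb and 0.27 over 12 in brain. These counts include S100pbp, the gene of an S100-binding protein and not an S100 gene itself, at -0.21 in limb and -0.04 in brain. S100b, a glial S100 gene, had 0.89 in brain, and S100a14, an epithelial one not detected in WT brain, at least 0.92, so that a larger difference is possible for it. Among 10 relatives of the peroxidase, transferrin and cystatin families, Meltf, an iron-binding relative of Ltf, was 9.33-fold higher in CKO than in WT in brain and 1.02-fold higher in limb, while the list had medians of -0.13 in limb and 0.00 in brain. The peroxidase gene Lpo, which lies next to Mpo in the RefSeq gene order, had -0.25 in limb and -0.24 in brain, and the peroxidase gene Epx was not detected on any array.

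**Figure D3:**
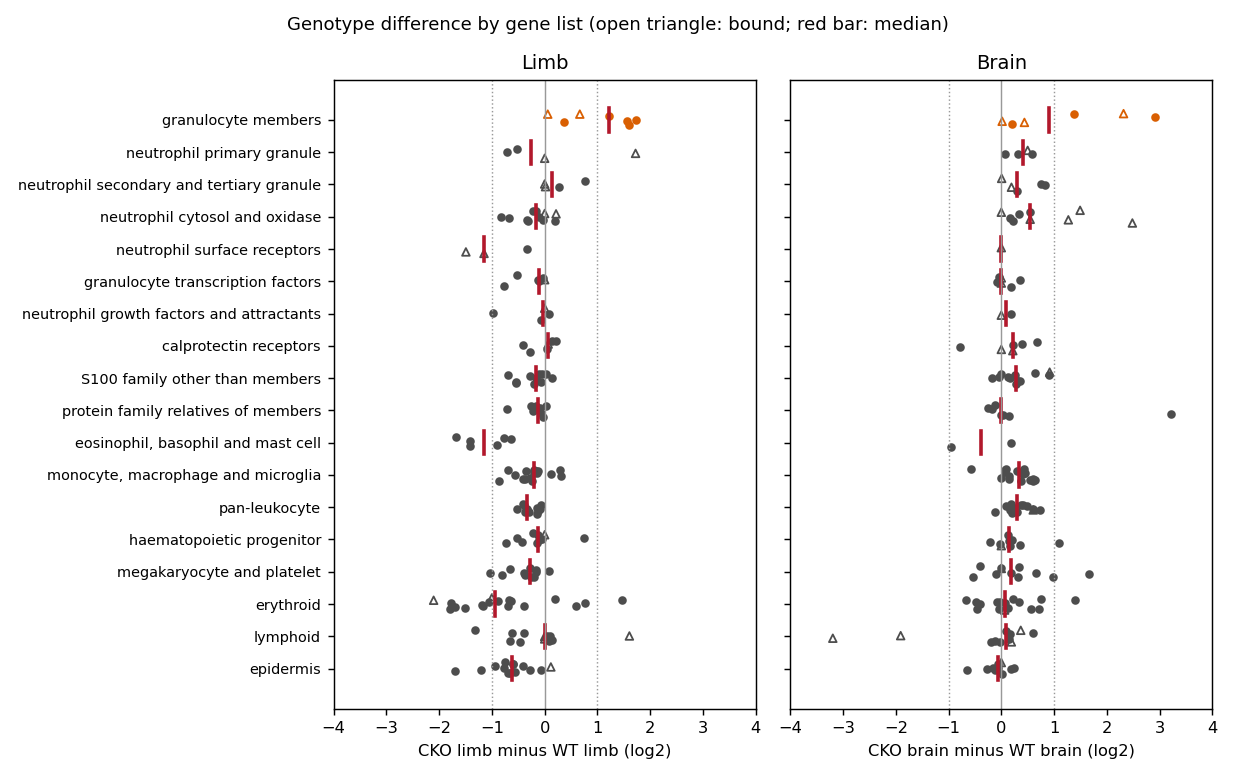
Difference between CKO and WT (log2) for each gene with a value, in limb, left, and in brain, right, for the 7 granulocyte genes and for 17 marker lists, with open triangles for bounds, red bars for medians and dotted lines at 2-fold. The granulocyte genes have medians of 1.23 in limb and 0.91 in brain, with 2 of 7 values in limb and 3 of 6 in brain entered at their lower bound, the 6 neutrophil and granulocyte lists have medians between -1.15 and 0.15 in limb and between 0.00 and 0.54 in brain, and the mast cell and erythroid lists lie below 0 in limb.

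Markers of the other cell types that a limb or brain sample could hold were set beside the granulocyte genes, for the whole list each time. Pan-leukocyte genes had a median log2 difference of -0.33 in limb, below 0 for 13 of 13 measured, and 0.30 in brain, above 0 for 11 of 12 measured. Their summed level was 13.53 in CKO limb and 16.4 in WT limb, and 7.64 in CKO brain and 7.28 in WT brain. Monocyte, macrophage and microglia genes had medians of -0.21 in limb and 0.34 in brain, and none of them reached 2-fold. The leukocyte and macrophage lists therefore lay on opposite sides of 0 in the 2 tissues, while S100a8, S100a9 and Mpo were at least 2-fold higher in CKO in both. Their part in the granulocyte differences was not tested.

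The mast cell and erythroid lists had medians below 0 in limb. Of the 6 measured mast cell, basophil and eosinophil genes, 3 were at least 2-fold lower in CKO limb, against 2.16% of all genes: Cma1 by -1.68, Hdc by -1.42 and Cpa3 by -1.41 log2, which encode mast cell chymase, histidine decarboxylase and carboxypeptidase A3. The list's summed level was 4.90 in CKO limb and 13.7 in WT limb, and 0.429 in CKO brain and 0.430 in WT brain. Prg2, Prg3, Epx, Ear1 and Ear6, which define eosinophils, were not detected on any array. Of the 18 erythroid genes with a value in limb, 9 were at least 2-fold lower in CKO, again against 2.16% of all genes, among them Alas2 at -1.79 and Ahsp at -1.77, and 1 was higher, against 2.49%. The summed erythroid level was 459 in CKO limb and 936 in WT limb, and 357 in CKO brain and 326 in WT brain. The higher one was Epor, the erythropoietin receptor gene, at 1.47 log2 in limb and 1.39 in brain. Megakaryocyte and platelet genes had medians of -0.28 in limb and 0.18 in brain, with Gp6, a platelet collagen receptor gene, at -1.03 in limb. The progenitor genes had medians of -0.13 in limb and 0.15 in brain, and Mecom alone reached 2-fold, at 1.10 in brain. Lymphoid genes had medians of 0.00 in limb and 0.08 in brain. Of these, the B cell gene Ms4a1 was at least 3.05-fold higher and the granzyme gene Gzmb differed by -1.33 log2 in CKO limb, and Cd79a and Gzma, detected in WT brain alone, were lower in CKO brain.

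The tissue labels held on the tissue marker lists. Neuronal genes summed to 302 in CKO brain and 307 in WT brain, against 8.71 in CKO limb and 3.48 in WT limb. Limb mesenchyme, cartilage and muscle genes summed to 178 in CKO limb and 150 in WT limb, and to 12.3 in CKO brain and 5.77 in WT brain. In CKO brain 4 of these genes were at least 2-fold higher than in WT brain, against 1.37% of all genes: Acan by 16.6-fold, Matn1 by at least 7.50-fold, Col2a1 by 3.27-fold and Prrx1 by 2.02-fold, 3 cartilage matrix genes and a mesenchymal transcription factor gene. In CKO limb 4 neuronal genes were at least 2-fold higher than in WT limb, against 2.49% of all genes: Elavl3 by at least 25.8-fold, Stmn2 by 7.15-fold, Tubb3 by 6.19-fold and Ina by 3.46-fold. Epidermal genes, which matter because keratinocytes can also make S100a8 and S100a9, had medians of -0.63 in limb and -0.06 in brain, with 0 of 13 measured above 0 in limb. The part of these markers in the granulocyte differences was not tested.

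The genes whose pattern over the 4 arrays came nearest to the mean of the granulocyte genes were Aspg, Chrdl1, Shfl, Epor and Cstdc4. Nearness is the Euclidean distance between log2 profiles centred on their own mean, over 17345 genes detected on both CKO arrays, with the mean taken over the 6 members that qualified. Values under the lowest detected signal of an array were set to that signal, as for Ltf in WT limb and for S100a8, Camp, Ltf and Cstdc4 in WT brain. Since the members were chosen for being higher in CKO, the list only describes which genes share that chosen pattern. Aspg, an asparaginase-family gene, had a distance of 0.15 and log2 levels of -0.50 in CKO limb, -1.55 in WT limb, -2.03 in CKO brain and -3.29 in WT brain. Chrdl1, a secreted antagonist of bone morphogenetic proteins, had a distance of 0.24, and Shfl 0.32, Epor 0.33 and Cstdc4 0.37. The members themselves lay farther from their own mean, between 0.74 for Camp and 2.68 for Prtn3. The distance rests on 4 points that share the same arrays, and it says nothing of what the genes do.

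The stretches just upstream of S100a8, S100a9 and Mpo are shown because these were the 3 genes at least 2-fold higher in CKO in both tissues. They are the 250 bases before each gene's start in RefSeq on GRCm38.p6, at chr3:90668821-90669070 on the plus strand for S100a8, chr3:90695722-90695971 on the minus strand for S100a9 and chr11:87793534-87793783 on the plus strand for Mpo. Capitals mark the letters TTNNGNAA of the C/EBP family, GAGGAA of PU.1 and TGTGGT of RUNX, 3 kinds of transcription factor that drive granulocyte genes, searched on both strands.
S100a8: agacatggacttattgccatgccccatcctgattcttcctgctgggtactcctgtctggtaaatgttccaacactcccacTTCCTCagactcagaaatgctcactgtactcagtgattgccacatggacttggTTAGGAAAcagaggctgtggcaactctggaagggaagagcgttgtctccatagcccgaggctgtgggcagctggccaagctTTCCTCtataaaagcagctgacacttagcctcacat
S100a9: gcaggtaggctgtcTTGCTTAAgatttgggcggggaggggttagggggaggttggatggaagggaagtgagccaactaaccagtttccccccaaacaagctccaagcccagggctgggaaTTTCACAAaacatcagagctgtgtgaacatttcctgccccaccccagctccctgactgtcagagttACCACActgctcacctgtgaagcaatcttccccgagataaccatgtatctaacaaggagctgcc
Mpo: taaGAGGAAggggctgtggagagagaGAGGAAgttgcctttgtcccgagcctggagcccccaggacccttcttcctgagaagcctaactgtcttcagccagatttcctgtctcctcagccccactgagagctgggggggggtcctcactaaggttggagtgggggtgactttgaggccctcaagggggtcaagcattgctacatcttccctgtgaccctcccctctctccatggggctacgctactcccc
All 7 genes matched a RefSeq promoter. The C/EBP letters were in 4 of the 7 windows (S100a8, S100a9, Ngp and Ltf) and in 36.8% of 32851 promoter windows of the same length. The PU.1 letters were in 4 of 7 (S100a8, Mpo, Prtn3 and Ltf), against 23.3%, and the RUNX letters in S100a9 alone, against 14% of all windows. The S100a8 window also held the TATA box letters TATAAA, found in 12.4% of windows, and no 2 matches overlapped in these 7 windows. The Camp window held none of these motifs. The REST element was searched as its parts CAGCACC, in 5.73% of all windows, and GGACAGC, in 5.28%, and 0 of the 7 windows held either. A match is a string of letters and not a shown binding site, and its absence covers this window alone.

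S100a8 and S100a9 are neighbours on chromosome 3 in the RefSeq gene order, and Camp, Ngp and Ltf lie on chromosome 9 but are not direct neighbours of each other. Among the listed genes within 3 places of these genes, S100a5, S100a7a, Elane and Epx were not detected on any array, and S100a6 and Lpo did not reach 2-fold in either tissue.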

How the data were processed

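Total RNA was labelled with Cy3 and hybridized to 4 Agilent 1-colour arrays, 1 per group. The submitters' processing notes name Agilent Feature Extraction 9.5.3.1. The deposited intensity values are linear and, per the file headers, background-subtracted within each array and not normalized between arrays. The series value table the authors deposited held the same intensity values rounded (largest gap 0.0071 log2 over 45018 spots).

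Control spots were left out after scaling was set on the 43379 others, outlier spots were dropped, and log2 signals were set relative to the 75th percentile of their array. Spots of a probe were averaged, and a gene was read from its brightest probe. Names came from the accession through a RefSeq table of GRCm38.p6 for 27040 probes, from a symbol for 5500, from a synonym for 874 and from the file for 7760. A difference of 2-fold was the size counted. Over 245 probes printed 10 times, the CKO minus WT difference had a median SD, from print to print, of 0.049 log2 for limb and 0.054 for brain. At log2 levels below -5 it was 0.33 for limb and 0.35 for brain. The number of arrays limits the precision.

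Limma 3.58.1 in R 4.3.3 fitted tissue and genotype, with Benjamini-Hochberg adjustment over all genes fitted. On simulated data for genotype over both tissues with 15628 genes, it recovered 0% of changes of 1 log2, 64% of 2, 86% of 3 and 88% of 4, with 8 false calls. Other steps used Python 3.11.15, numpy 2.4.6, pandas 2.3.3, scipy 1.17.1 and matplotlib 3.10.9. The genes and the 19 marker lists (232 genes) were chosen with earlier results of these data known. The text names all 7 genes, Rest, listed genes at least 2-fold different (at most 4 a list, more for neutrophil lists), defining markers below background and the 5 genes nearest in pattern; other genes named with smaller differences were chosen after their values were seen. Alternatives changed the background correction, scaling, source of values, dim-probe filter, probe rule, detection call and limma prior. Some listed genes are not reported here.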

Additional observations from a re-analysis of the deposited data

How the results depend on the processing

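No paired analysis was possible because the labels do not tie a limb sample to a brain sample of the same embryo, and no group has a second replicate. Quantile normalization, median centring, the deposited series table and the mean of all probes left the counts of granulocyte genes and of neutrophil-list genes past 2-fold within 1.5 times of those reported. The counts for the other marker lists were not recomputed. With the mean of all probes, the mast cell, basophil and eosinophil list had a median of -2.31 log2 in brain, against -0.38 with the brightest probe. With normexp background correction, the granulocyte genes at least 2-fold higher in CKO brain went to 1, against 3 reported, and the genes of the neutrophil lists to 0 in limb, against 1, and to 1 in brain, against 3. When only probes well above background on both arrays were used, the neutrophil lists gave 0 in limb and 0 in brain, since each of their reported calls had 1 undetected array. With the lenient detection call, added after seeing the data, the granulocyte genes came to 6 in brain, the neutrophil lists to 4 in limb and 11 in brain, and the granulocyte genes lower in brain in both genotypes to 5, against 3. Of the members' recalculated differences 10 moved by more than the scanner error, 6 of them under normexp. The causes were not tested. The tissue difference of S100a9 had a limma adjusted p of 0.070 with genes detected on at least 1 array. Normexp counted 286 genes higher in limb and 87 in brain over all genes, against 460 and 259 reported; the lenient call counted 934 and 720, and the filter on both arrays 262 and 150. The genotype fit called 0 genes under every alternative, with 983 to 1499 at an unadjusted p under 0.05. With 1 array per group, neither spread between embryos nor labelling error can be had, and signals near background limit Ngp, Ltf, Camp and the WT brain value of S100a8.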
